A study of Mus musculus with 6 samples.

Results

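The expression of 10 genes of the circadian clock was followed in mouse tracheal epithelium before and after injury by SO2 gas. The genes were the activators Arntl, Clock and Npas2, and the repressors and outputs Per1, Per2, Per3, Cry1, Cry2, Nr1d1 and Dbp. Every probe set that the array annotation assigns to exactly 1 of these symbols was taken, which gave 23 of the 45037 probe sets and 10 of the 18193 genes on the arrays, 8 probe sets for the 3 activators and 15 for the 7 repressors and outputs. The epithelium came from male C57Bl/6 mice with no genetic change named. Control epithelium was from normal mice, and 48 hpi epithelium was from mice killed 48 h after 4 h in 500 ppm SO2, for which the methods give an age of 8 to 12 weeks. Each group had 3 samples, and each sample was a pool of cells from 4 tracheas, peeled after dispase, trypsinized and depleted of CD45+ leukocytes. RNA was hybridized to Affymetrix arrays of the whole mouse genome, and the values are robust multi-chip analysis (RMA) expression on a log2 scale. The hour of the day at which tracheas were collected is not given in the sources used here.

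The circadian clock is a feedback loop of transcription with a period of about a day that runs in nearly all cells, including those of the airway. A complex of ARNTL (also called BMAL1) with CLOCK or its paralog NPAS2 binds E-boxes and drives the Per and Cry genes, whose proteins return to the nucleus and inhibit the complex. The same complex drives Nr1d1, which encodes the nuclear receptor REV-ERB alpha, a repressor of Arntl, Npas2 and Cry1, and Dbp, which encodes an activator that binds D-boxes in Per1, Per3 and other genes. In tissues with a running clock, Arntl and Npas2 therefore peak at nearly the opposite time of day to Nr1d1, Dbp and Per3, and Cry1 lags the other repressors. Per1 is also known as a gene that responds quickly to cAMP, glucocorticoids and stress.

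Motifs of this loop were looked for in the promoters of the members, since they tie the activator and the repressor arm to each other. RefSeq promoter windows of GRCm38.p6 reach from 250 bases before to 50 bases after a transcript start, and 9 of the 10 genes matched with 13 windows, the exception being Per2. The E-box CACGTG was found in 2 of the 13 windows and in 7.15% of all 32851 windows. The related E-prime box CACGTT was found in 3 of the 13 and in 4.68% of all, the D-box TTATGNAA in 2 and in 3.38%, and the core of the REV-ERB and ROR element, TAGGTNA, in 2 (overlapping windows of Arntl) and in 8.29%. Both strands were searched, and in the windows of Cry1, Cry2 and Nr1d1 the E-prime box reads AACGTG on the strand of the gene. Motifs of these kinds are known to link members of the loop, and whether the matches here do so was not tested. The matches are printed 5′ to 3′ on the strand of the gene, with the motif in capitals.
Per1 E-box, plus strand, chr11:69098773-69098798: cacccaagtcCACGTGcagggatgtg
Cry1 E-box, minus strand, chr10:85185099-85185124: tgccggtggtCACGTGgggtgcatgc
Cry1 E-prime box, minus strand, chr10:85185118-85185143: acacttcagaAACGTGaggtgccggt
Cry2 E-prime box, minus strand, chr2:92434220-92434245: acatggtgggAACGTGagggggcgga
Nr1d1 E-prime box, minus strand, chr11:98775390-98775415: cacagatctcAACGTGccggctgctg
Per1 D-box, plus strand, chr11:69098915-69098942: gggcctggcaTTATGCAAcccgcctccc
Per3 D-box, minus strand, chr4:151044853-151044880: gacccgcgcgTTATGTAAggtactcggg
Per3 D-box, minus strand, chr4:151044806-151044833: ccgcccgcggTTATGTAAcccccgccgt
Arntl REV-ERB and ROR core, plus strand, chr7:113207495-113207521: ggtcggaaagTAGGTTAgtggtgcgac
Arntl REV-ERB and ROR core, plus strand, chr7:113207531-113207557: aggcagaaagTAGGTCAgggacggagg
A match says only that these letters are in the window, and a window without one says nothing about the factor.

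Markers of the cell types of the epithelium also differed between the groups, and their part in the changes of the clock genes was not tested. Of 9 measured cell cycle genes 9 were higher at 48 hpi, and 8 of 10 ciliated and 7 of 10 secretory cell markers were lower, against 18.4% of all genes higher and 16.1% lower (adjusted p below 0.05 from limma). Among the ciliated markers, Dnah5 was called lower but was not above background in either group. Foxj1 was not called (−0.04, limma adjusted p = 0.960). Both were named after their values were seen. The mean level of the ciliated markers was 6.12 to 7.07 in control and 5.02 to 5.71 at 48 hpi, that of the secretory markers 13.70 to 13.76 and 11.86 to 13.00. The 8 basal cell markers were all above background, and 2 were higher (Krt5 by 0.69 and Krt14 by 3.18), 3 were lower (Ngfr, Pdpn and Dapl1, with changes of −0.66, −0.35 and −0.95) and 3 were not called, with a mean level of 10.25 to 10.38 in control and 10.53 to 10.59 at 48 hpi. Of 8 leukocyte markers 4, Ptprc among them, were not above background in either group, and 2 were lower, Csf1r (−0.84) and Lyz2, with values of 13.85, 13.60 and 13.87 in control and 12.35, 10.99 and 8.57 at 48 hpi. The other Csf1r probe sets, above background in both groups, were not called (−0.30 and 0.01, limma adjusted p = 0.173 and 0.954). The mean level of the 8 leukocyte markers was 5.66 to 5.73 in control and 4.93 to 5.46 at 48 hpi. This mean includes Lyz2, which had the largest change of the 8, −3.14. Of 10 markers of fibroblasts, cartilage, endothelium and muscle 5 were not above background, and 2 were lower, Dcn (−1.85) and Myh11 (−0.43, not above background), with a mean level of 4.74 to 4.87 in control and 4.63 to 4.96 at 48 hpi. The leukocyte markers called lower were 1 without control replicate 1, 2 or 3, and those of the other tissues were 1 without control replicate 2 or 48 hpi replicate 1 or 2. In such bulk samples fewer cells of a type and less RNA per cell cannot be told apart. Background was set at 4.94 in control and 4.81 at 48 hpi, the level below which 95% of 79 probe sets of odorant, pheromone and trace amine receptor genes lay. Among the samples at 48 hpi, replicate 3 was the least like the rest (correlation over all probe sets 0.990 and 0.992, against 0.996 for replicates 1 and 2).

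After injury, genes of both arms of the clock were lower. By the brightest probe set of each gene, Arntl, Npas2, Per1 and Nr1d1 were lower at 48 hpi and Clock was higher, while Per2, Per3, Cry1, Cry2 and Dbp were not called. Brightness was taken over the arrays of both groups, so a rise at 48 hpi could itself decide the choice. In control alone, other probe sets of Clock and Per2 were brighter (7.86 against 7.48, and 7.05 against 6.82). Their changes were −0.63, called lower, for Clock and −0.41, not called, for Per2. A gene was called when its adjusted p from limma, taken over all probe sets, was below 0.05. Thus 4 of the 10 genes were lower, against 16.1% of all genes, and 1 was higher, against 18.4%, so that 5 were called in either direction, against 34.5%. The median change of the 10 genes was −0.22, and that of all genes was −0.02 (log2, 48 hpi minus control). The 3 samples of each group did not overlap for 6 of the 10 genes, against 50.4% of all genes. Of the 23 probe sets, 18 were above background in at least 1 group, 8 were called lower and 1 higher, against 13.9% and 14.5% of all probe sets (28.4% in either direction), and 12 had groups that did not overlap, against 43.4%. With 3 samples in each group, 0.1 is the smallest two-sided p that an exact permutation test of 1 gene allows.

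**Figure D1:**
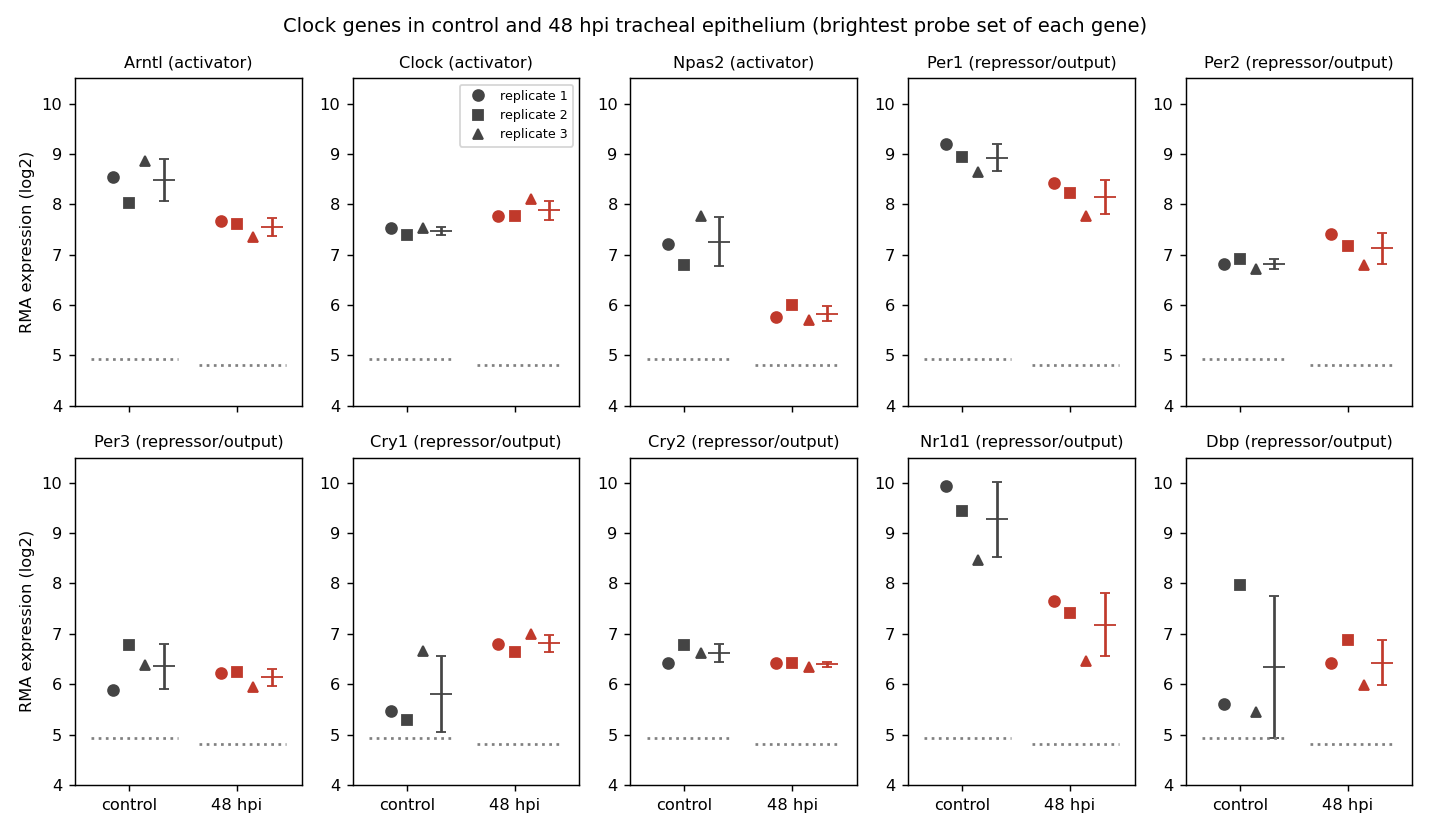
RMA expression (log2) of the brightest probe set of each clock gene in every pool of control (black) and 48 hpi (red) epithelium, with the mean and SD of 3 pools as bars and the background level of each group as a dotted line. Arntl, Npas2, Per1 and Nr1d1 lie lower at 48 hpi with no overlap, and the control pools of Dbp and Cry1 lie further apart than the pools at 48 hpi.

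Arntl encodes the partner of CLOCK or NPAS2 in the activating complex. Its values were 8.53, 8.03 and 8.87 in control replicates 1 to 3 and 7.68, 7.62 and 7.35 in 48 hpi replicates 1 to 3. Every control sample was above every sample at 48 hpi. The mean fell from 8.48 ± 0.42 to 7.55 ± 0.17 (n = 3 pools, SD), a log2 change of −0.93 (SE 0.20, limma adjusted p = 0.0102). The other Arntl probe set, in a dimmer range, gave a change of −0.76 (SE 0.21, limma adjusted p = 0.0283), also without overlap. The call of Arntl held when any 1 sample was left out, and was lost with arrays shifted to equal hybridization controls (−0.59, limma adjusted p = 0.0617) and in the test with each probe set's own variance (adjusted p = 0.0913).

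Npas2, whose product can take the place of CLOCK in the complex, showed the second largest change of the 10 genes. Its control values were 7.21, 6.80 and 7.76, and its values at 48 hpi were 5.77, 6.01 and 5.71, so that the groups were separated by a gap wider than the range at 48 hpi. The mean fell from 7.26 ± 0.48 to 5.83 ± 0.16 (n = 3 pools, SD), a log2 change of −1.43 (SE 0.22, limma adjusted p = 0.00229) or 2.69-fold. The call held under all 20 alternatives for the test, the scaling, the probe sets and the samples. The other Npas2 probe set was not above background in either group.

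Clock is measured by 4 probe sets, and they disagree. The brightest had values of 7.52, 7.39 and 7.53 in control and 7.77, 7.78 and 8.10 at 48 hpi, a log2 change of 0.40 (SE 0.11, limma adjusted p = 0.0317). The next brightest had values of 7.80, 7.86 and 7.92 in control and 7.20, 7.27 and 7.21 at 48 hpi, a change of −0.63 (SE 0.08, limma adjusted p = 0.00111). Another also fell, by 0.62 (SE 0.13, limma adjusted p = 0.00831), and the dimmest was not above background. None of the 3 probe sets above background had overlapping groups, so that Clock, the subunit that pairs with ARNTL, had no single direction on this array. The call of the brightest probe set was lost when control replicate 1, 2 or 3 or 48 hpi replicate 3 was left out (limma adjusted p = 0.0568, 0.111, 0.0691 and 0.0613), with repeated quantile normalization (0.29, limma adjusted p = 0.107) and in the test with each probe set's own variance (adjusted p = 0.0978). The mean of the 4 probe sets had a change of −0.26 (limma adjusted p = 0.129).

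Among the repressors, Per1 was lower after injury. It had values of 9.19, 8.95 and 8.65 in control and 8.43, 8.23 and 7.77 at 48 hpi, without overlap. The mean fell from 8.93 ± 0.27 to 8.14 ± 0.33 (n = 3 pools, SD), a log2 change of −0.79 (SE 0.19, limma adjusted p = 0.0172). The call was lost without control replicate 1 (−0.66, limma adjusted p = 0.0521), without control replicate 2 (−0.78, limma adjusted p = 0.0574), with equal hybridization controls (−0.44, limma adjusted p = 0.176) and in the test with each probe set's own variance (adjusted p = 0.114).

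Per2, the paralog whose protein sets much of the period of the loop, was not called on any of its 3 probe sets. The brightest had values of 6.82, 6.91 and 6.72 in control and 7.40, 7.17 and 6.80 at 48 hpi, where replicate 3 lay within the control range. Its change was 0.31 (SE 0.15, limma adjusted p = 0.18), and it was called higher without 48 hpi replicate 3 (0.47, limma adjusted p = 0.0222) and with equal hybridization controls (0.65, limma adjusted p = 0.0337). Another probe set pointed the other way without overlap (−0.41, SE 0.14, limma adjusted p = 0.0718), and the dimmest had a change of 0.12 (SE 0.10).

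Per3, which is known as the most output-like of the Per genes, has 6 probe sets on the array, 3 of them not above background. The brightest had values of 5.89, 6.78 and 6.38 in control and 6.23, 6.23 and 5.95 at 48 hpi, a change of −0.22 (SE 0.21, limma adjusted p = 0.504), with the samples at 48 hpi inside the control range. Without control replicate 2 its change was 0.0011, and with equal hybridization controls 0.13. The next brightest had values of 5.45, 6.48 and 5.59 in control and 4.78, 5.06 and 5.08 at 48 hpi and was called lower (−0.87, SE 0.25, limma adjusted p = 0.0336). On both probe sets control replicate 2 was the highest of all samples.

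The Cry genes encode the main inhibitors of the activating complex. Cry1 had values of 5.46, 5.30 and 6.67 in control and 6.80, 6.65 and 6.99 at 48 hpi. Control replicate 3 reached the level at 48 hpi, and the other control samples lay more than 1 log2 unit below it. The change was 1.00 (SE 0.32, 95% confidence interval 0.26 to 1.75, limma adjusted p = 0.0503), just outside the threshold. Cry1 was called higher under 8 of 20 alternatives, among them the fit without control replicate 3 (1.43, limma adjusted p = 0.00112) and the fit with 1 probe set a gene (limma adjusted p = 0.04), and its adjusted p ranged from 3.6e-07 to 0.208. The lowest of these came from the shift to equal hybridization controls, in which limma gave every probe set nearly the same variance.

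Cry2 had values of 6.43, 6.79 and 6.62 in control and 6.41, 6.42 and 6.34 at 48 hpi, a change of −0.22 (SE 0.11, 95% confidence interval −0.47 to 0.03, limma adjusted p = 0.18). The groups did not overlap, although control replicate 1 lay close to the samples at 48 hpi. With equal hybridization controls its change was 0.12. A test of the difference between Cry1 and Cry2 was not run.

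Nr1d1 showed the largest change of the 10 genes. Its values were 9.93, 9.44 and 8.46 in control and 7.66, 7.41 and 6.47 at 48 hpi. The mean fell from 9.27 ± 0.75 to 7.18 ± 0.63 (n = 3 pools, SD), a log2 change of −2.10 (SE 0.41, 95% confidence interval −3.03 to −1.16, limma adjusted p = 0.00625), or 4.27-fold. No sample at 48 hpi reached the lowest control sample, and both groups spread widely, over 1.47 in control and 1.19 at 48 hpi. Of 20 alternatives, only the test with each probe set's own variance lost the call (adjusted p = 0.0835). Both Nr1d1, a repressor of Arntl, and Arntl itself were lower in the same samples.

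Dbp had the widest spread. Its brightest probe set had values of 5.61, 7.96 and 5.45 in control and 6.43, 6.87 and 5.98 at 48 hpi, so that every sample at 48 hpi lay between control replicate 2 and the other control samples. The change was 0.09 (SE 0.61, 95% confidence interval −1.31 to 1.48, limma adjusted p = 0.938), an interval wide enough to hold more than a doubling in either direction. The other probe set gave 4.74, 7.03 and 4.49 in control and 5.42, 5.56 and 4.81 at 48 hpi, with the same order of the control samples. Without control replicate 2 Dbp was called higher (0.90, limma adjusted p = 0.0425), and without control replicate 1 or 3 its change was −0.28 or −0.36, neither of them called.

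**Figure D2:**
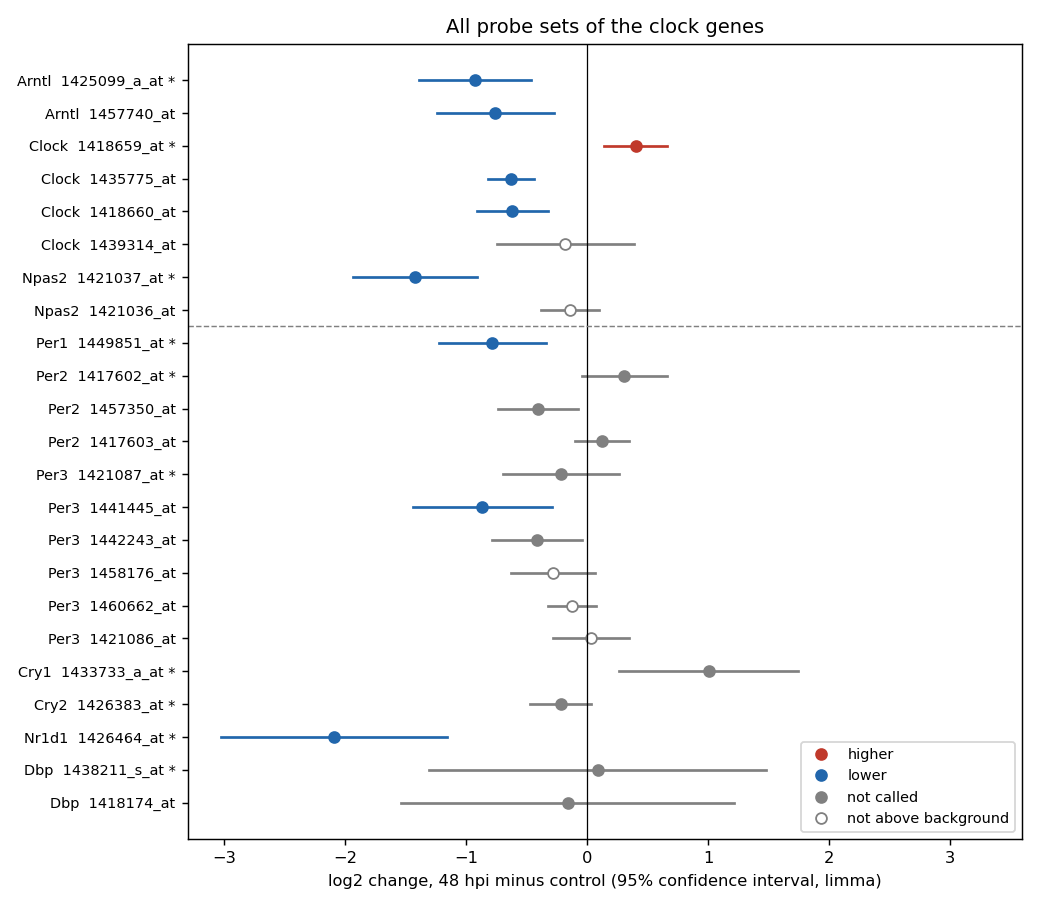
Log2 change, 48 hpi minus control, of the 23 probe sets of the clock genes with 95% confidence intervals from limma (3 pools against 3). Stars mark the brightest probe set of each gene, open circles are probe sets not above background, and the dashed line parts the activators (top) from the repressors and outputs. Of the 3 Clock probe sets above background 1 is higher and 2 are lower, and the intervals of Dbp are the widest.

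The arms were set against each other within each array, as the mean over the 3 activators minus the mean over the 7 repressors and outputs. Such a difference does not move with the scaling of an array, and only its variation between arrays can be read, since levels of different probe sets are not comparable. It was 0.71, −0.04 and 1.06 in control replicates 1 to 3 and 0.02, 0.14 and 0.44 in 48 hpi replicates 1 to 3. All samples at 48 hpi therefore lay inside the control range, and the mean difference between the groups, −0.38, was smaller than the control SD of 0.56. The activator mean alone was 7.74 ± 0.32 in control and 7.09 ± 0.04 at 48 hpi, and the repressor and output mean 7.16 ± 0.25 and 6.89 ± 0.24 (n = 3 pools, SD), with groups that overlapped for the repressors and outputs and not for the activators. The difference between the groups rested on which genes were taken: with each gene left out in turn, a check added after seeing the data, it ran from −0.90 without Clock and −0.68 without Nr1d1 to 0.01 without Npas2. It was −0.11 without both Cry genes and −0.72 with Clock read by its next brightest probe set, the brightest in control. No test was made of these scores.

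Within the control group, Arntl, Npas2 and Cry1 were lowest in replicate 2 and highest in replicate 3, and Dbp was highest in replicate 2 and lowest in replicate 3. Control replicate 2 lay below the control mean in Arntl by 0.45, in Npas2 by 0.46 and in Cry1 by 0.51. It lay above the mean in Dbp by 1.62, in Per3 by 0.43 and in Nr1d1 by 0.16. Control replicate 3 lay above the mean in Arntl by 0.39, in Npas2 by 0.51 and in Cry1 by 0.86. It lay below the mean in Nr1d1 by 0.82 and in Dbp by 0.89, and near it in Per3 (0.03). In control replicate 1, Arntl and Npas2 lay near their means, with deviations of 0.06 and −0.05. There Cry1 lay below by 0.35, Dbp by 0.73 and Per3 by 0.46, and Nr1d1 lay above by 0.65. In control replicates 1 to 3, Per1 deviated by 0.26, 0.02 and −0.28, and Cry2 by −0.18, 0.18 and 0.01. The deviations of Per2 were 0.003, 0.10 and −0.10, and those of Clock 0.04, −0.09 and 0.05. Arntl minus Dbp, a log2 ratio within an array, was 2.92, 0.07 and 3.41 in the control samples and 1.25, 0.74 and 1.37 at 48 hpi, a range of 3.34 in control against 0.63 after injury. Arntl minus Per3 was also lowest in control replicate 2 (2.64, 1.25 and 2.49). Arntl minus Nr1d1 did not set that sample apart, with −1.39, −1.41 and 0.41 in control and 0.02, 0.20 and 0.88 at 48 hpi. The change between the groups was −1.02 for Arntl minus Dbp and 1.16 for Arntl minus Nr1d1.
Of the 10 clock genes, 4 (Per2, Per3, Cry2 and Dbp) had their highest control value in replicate 2, 4 (Arntl, Clock, Npas2 and Cry1) in replicate 3 and 2 (Per1 and Nr1d1) in replicate 1. The Per2 probe set that was brightest in control was highest in replicate 3 instead (6.74, 7.16 and 7.25). Of 11 other measured genes of the loop, 2 were highest in control replicate 2, 5 in replicate 3, among them Hlf, another paralog of Dbp, and 4 in replicate 1, and of 5 measured genes known to cycle in many tissues 4 were highest in replicate 2. Nr1d2, the paralog of Nr1d1, and Tef, a paralog of Dbp, each lay 0.43 above the control mean there, and Usp2, which encodes a deubiquitinase, lay 0.34 above it. Hlf and these 3 genes were chosen after their values were seen. The share of all genes highest in each control replicate was not counted, so the counts by replicate have no background beside them. Control replicate 2 also had the highest mean of ciliated cell markers in its group, 7.07 against 6.12 and 6.63, and the part of the cell mix in these deviations was not tested. The part of the hour of collection was not tested either, as the sources used here do not give it.

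**Figure D3:**
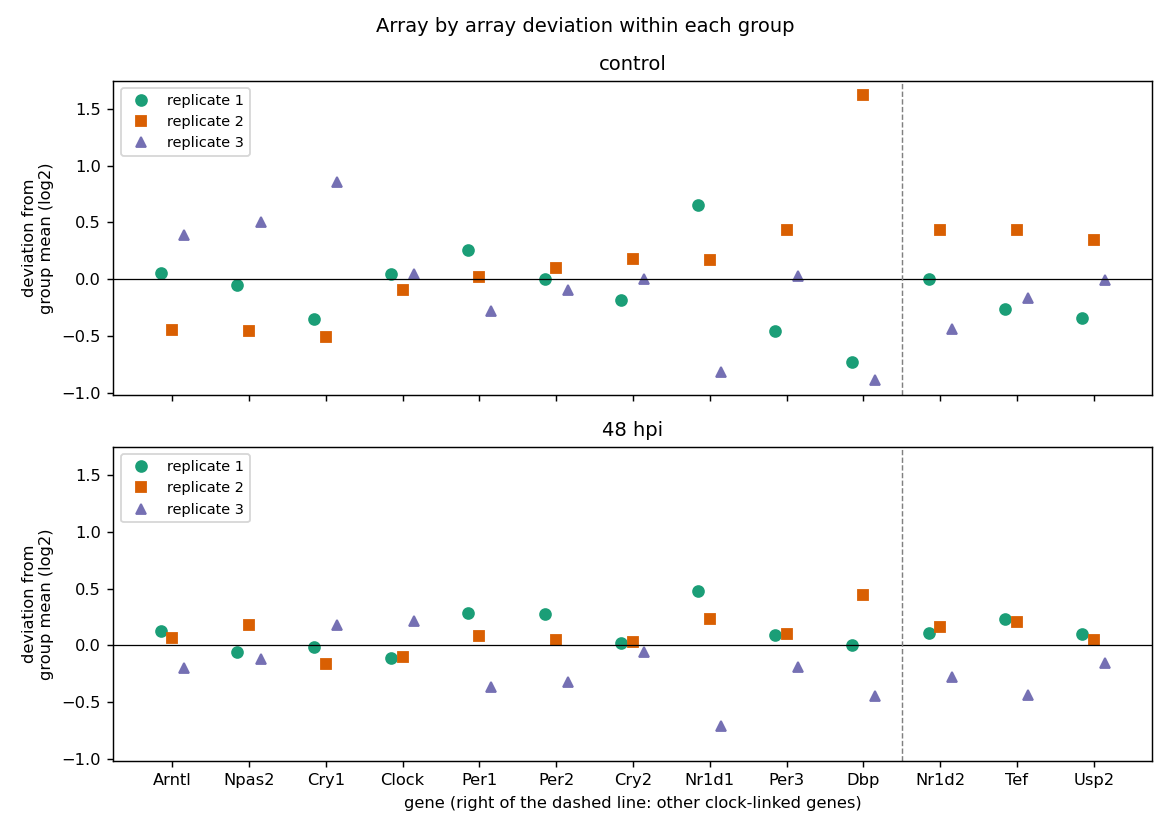
Deviation of each sample from the mean of its group (log2) for the 10 clock genes and, right of the dashed line, Nr1d2, Tef and Usp2, in control (top) and 48 hpi (bottom) epithelium. In control, replicate 2 is lowest in Arntl, Npas2 and Cry1 and highest in Per3, Dbp, Nr1d2, Tef and Usp2, whereas at 48 hpi replicate 3 is lowest in most genes of both arms.

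The spread of the clock genes between control samples was large for this array. Ranked among the 24086 probe sets above background, the control SD lay above the 90th percentile for 6 of the 10 genes (Arntl, Npas2, Per3, Cry1, Nr1d1 and Dbp), and the median percentile of the 10 was 96.9. At 48 hpi 2 of the 10 genes, Nr1d1 and Dbp, lay above the 90th percentile of that group, and the median percentile was 65.3. The SD of Arntl was at percentile 96.7 in control and 63.4 at 48 hpi, that of Npas2 at 97.6 and 58.4, and that of Cry1 at 99.5 and 62.2. Dbp was at percentile 99.99 in control and 95.4 at 48 hpi. A wide control spread was not particular to the clock genes. Among the ciliated cell markers, Foxj1, Dnah9, Ccdc39, Tekt1, Rsph1, Fam183b and Mlf1 had a control SD at percentiles 97.7 to 99.8. Dnah5, Dnaic1 and Hydin were at 32.2, 85.2 and 76.6. These markers were named after their values were seen. All the ranks are descriptions of 3 samples per group, and the difference in spread between the groups was not tested. For 4 of the 10 genes (Per3, Cry1, Cry2 and Dbp) the control range, 0.89, 1.37, 0.36 and 2.51, exceeded the change between the groups, and for the other 6 it did not. On the Per2 probe set that was brightest in control, the control range of 0.51 exceeded the size of the change, −0.41.

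Of 11 other measured genes of the loop, 4 were lower, against 16.1% of all genes, and 2 higher at 48 hpi, against 18.4%, with a median change of −0.01. Rora, which encodes the activator that competes with REV-ERB at the element found in Arntl, had values of 7.92, 8.12 and 8.13 in control and 6.27, 6.48 and 5.52 at 48 hpi, a log2 change of −1.97 (SE 0.22, limma adjusted p = 0.00058). Bhlhe40, which encodes the E-box repressor DEC1, fell by 1.52 (SE 0.24), and Nfil3, whose product opposes DBP at D-boxes, fell by 1.32 (SE 0.26). Nr1d2 had values of 9.28, 9.70 and 8.84 in control and 8.64, 8.69 and 8.25 at 48 hpi, a change of −0.74 (SE 0.22, limma adjusted p = 0.0355), and its call was lost under 10 of 20 alternatives, among them leaving out control replicate 1 or 2 or any sample at 48 hpi. Tef missed the threshold (−0.72, SE 0.23, limma adjusted p = 0.0518). Timeless, known in mammals chiefly for its role at the replication fork, rose by 2.57 (SE 0.20), beside the higher cell cycle genes. Nr1d2, Tef and Arntl2 were named after their values were seen. Arntl2, a paralog of Arntl, rose from 5.23 ± 0.10 to 5.55 ± 0.03 (n = 3 pools, SD), a change of 0.32 (SE 0.09, limma adjusted p = 0.0295), and its call was lost without control replicate 1 or 2 or any sample at 48 hpi (limma adjusted p from 0.0523 to 0.0847). The other Arntl2 probe set, not above background in control, rose by 1.45 (SE 0.20, limma adjusted p = 0.00125), and the mean of both probe sets by 0.88 (limma adjusted p = 0.00096).

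Of 9 measured genes for the turnover of PER and CRY proteins, 2 were lower and 2 higher, against 16.1% and 18.4% of all genes. Csnk1e, which encodes casein kinase 1 epsilon, fell by 0.39 (SE 0.08), and Btrc, which encodes the ligase subunit that recognizes phosphorylated PER, fell by 0.44 (SE 0.13). The other Csnk1e probe sets, above background, were not called (−0.21 and −0.18, limma adjusted p = 0.197 and 0.143). The mean of the Csnk1e probe sets had a change of −0.26 (limma adjusted p = 0.0205). Csnk2a2, a catalytic subunit of casein kinase 2, rose by 1.02 (SE 0.20). Its other probe sets above background in both groups had changes of 1.35, 0.39, 0.31 and 0.22, the last not called (limma adjusted p = 0.308). Prkaa1, a catalytic subunit of AMPK, rose by 0.70 (SE 0.12) from a control level within background. Its mean at 48 hpi, 4.85, was just above the background of 4.81. With equal hybridization controls Csnk1e and Btrc had changes of −0.05 and −0.10 and were not called. Of 5 measured genes known to cycle in many tissues, Usp2 was lower (−0.68, SE 0.17) and Tspan4, Wee1 and Lonrf3 were higher (2.09, 1.09 and 0.44), against 16.1% of all genes lower and 18.4% higher, while Tsc22d3 was not called (−0.56, SE 0.21). Wee1, an inhibitor of mitotic entry, is also a cell cycle gene. Its other probe set was not called (0.26, SE 0.17, limma adjusted p = 0.322), and the mean of both rose by 0.67 (limma adjusted p = 0.00158).

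Per1 and Nr1d1 ordered the arrays as did the mean of 12 immediate early genes, which respond to stress and growth signals. Of 12 immediate early genes, such as Fos, Egr1 and Btg2, 8 were lower at 48 hpi, against 16.1% of all genes, and none was higher, against 18.4%. Their mean level was 11.74, 11.47 and 11.39 in control replicates 1 to 3 and 11.09, 10.93 and 10.32 in 48 hpi replicates 1 to 3. The same order of the 6 samples was seen in Per1, in Nr1d1 and in Bhlhe40, and in none of the other 8 clock genes. Some of the 12 immediate early genes, Btg2 among them, did not have it. Of 12272 genes above background, 2.04% had that order. The likeness was noticed after the values were seen, and it includes the difference between the groups. The part of the immediate early response in the lower levels of Per1 and Nr1d1 was not tested.

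**Figure D4:**
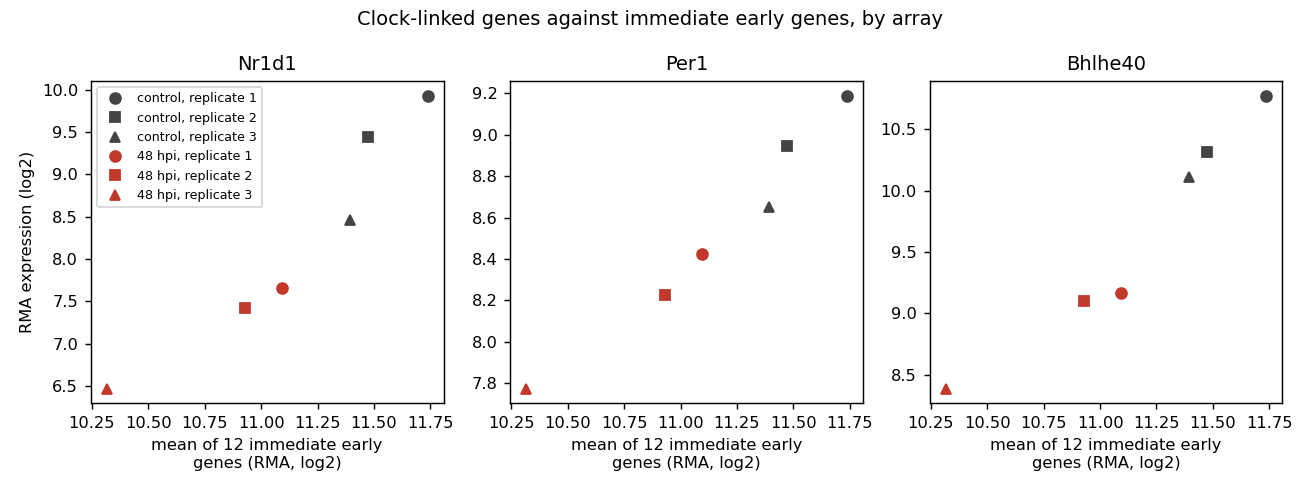
RMA expression (log2) of Nr1d1, Per1 and Bhlhe40 against the mean level of 12 immediate early genes (log2) in each pool of control (black) and 48 hpi (red) epithelium. In each panel the 6 pools have the same order on both axes, with control replicate 1 highest and 48 hpi replicate 3 lowest.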

How the data were processed

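Epithelium from 3 control and 3 48 hpi samples was compared, grouped by the sample labels. The authors deposited log2 values made by RMA in Partek 6.5 from Affymetrix arrays (the submitters' processing notes also name Affymetrix Expression Console 1.1), without detection calls. RMA evens out the distributions of the arrays, so a change in total RNA cannot be seen. Of 45101 probe sets 64 control probe sets were left out, and limma 3.58.1 in R 4.3.3 was fitted without a block to the other 45037, with Benjamini-Hochberg adjustment over all of them and a threshold of 0.05. A gene was counted by its brightest probe set over the 6 arrays. Symbols came from the array annotation, and 10 of 10 members matched RefSeq genes of GRCm38.p6 by Entrez ID. The members and lists were chosen with earlier results of these data known. Named are every member, at most 4 called genes a list by smallest p, any gene of lists of 8 or fewer, and genes said to be chosen later. The test was checked on simulated data. Alternatives were a mean-variance trend, robust estimates, a test with each probe set's own variance in place of limma's moderated one, other scalings, probe set choices and filters, a replicate block, array weights, stricter thresholds and leaving out each sample. The study's methods name a two-way analysis of variance over epithelium and mesenchyme for the arrays, which was not rebuilt, as only the epithelium was analysed here. Plots were drawn with matplotlib 3.10.9. Arrays per group, 3, limit the precision.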

Additional observations from a re-analysis of the deposited data

How the results depend on the processing

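Of 520 values of 26 single genes under the alternatives, 426 kept the direction and the side of the threshold, 62 lost a call, 22 gained one and 10 changed sign. The sign changed for Dbp with array weights (−0.10), the mean of probe sets (−0.038), without x and s probe sets (−0.16) and without 48 hpi replicate 2, control replicate 1 or control replicate 3 (−0.14, −0.28 and −0.36), for Per3 and Cry2 with equal hybridization controls (0.13 and 0.12), for Per3 without control replicate 2 (0.0011) and for Clock with the mean of probe sets (−0.26). The shift to equal hybridization controls moved the median change of all probe sets from −0.03 to 0.32, and the cause was not tested.

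The clock genes called higher, 1 in the fit reported, were 2 with 1 probe set a gene, arrays set to a common median, a trend, the replicate block and without dim probe sets, 3 with equal hybridization controls, and 0 with repeated quantile normalization, the test with each probe set's own variance, a threshold of 0.01 and a log2 change of at least 1. The same values held for probe sets called higher where they could be counted. The clock genes called lower, 4, were 2 with equal hybridization controls, a threshold of 0.01 and a log2 change of at least 1, and 1 with the test with each probe set's own variance, and the probe sets called lower, 8, were 2, 4, 2 and 2 in that order. Leaving out 1 sample gave 0 to 1 genes and 0 to 1 probe sets called higher, 3 to 4 genes and 6 to 10 probe sets called lower, and 4051 to 5860 of all probe sets called lower (5210 to 5904 higher), the lowest without control replicate 2. The change of Per3 ranged from −0.44 to 0.0011 and that of Dbp from −0.36 to 0.90, the last without control replicate 2. The arm difference, −0.38, ranged from −0.69 to −0.13 when 1 sample was left out and was −0.90 without Clock (an alternative chosen after seeing the data).

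Over all probe sets, 6512 were called higher and 6267 lower, 8068 and 4522 after arrays were set to a common median, 8064 and 1480 at equal hybridization controls, 2948 lower with the test with each probe set's own variance, 2971 lower at a threshold of 0.01, and 1740 and 1293 with a log2 change of at least 1. Other loop genes called, 6, were 3 with the test with each probe set's own variance. Turnover genes called, 4, were 2 with equal hybridization controls and the test with each probe set's own variance, 7 with the mean of probe sets and 1 with a log2 change of at least 1. Outputs called, 4, were 2 with the test with each probe set's own variance, a threshold of 0.01 and a log2 change of at least 1.

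Whether the replicate numbers of the labels pair the samples was not settled. Deviations of same-numbered samples correlated at 0.20, 0.08 and 0.19, and every sample correlated best with its own number. Deviations of samples with different numbers correlated at −0.21 to −0.03. With the replicate block Cry1 was called higher (1.00, limma adjusted p = 0.00885), and 6533 probe sets were higher and 7019 lower.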

Other observations

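Genes that glucocorticoids are known to induce were looked at because Per1 is one of them and because glucocorticoids pass the time of day to tissues. Of 7 measured genes 4 were lower at 48 hpi, against 16.1% of all genes, and 1 was higher, against 18.4%, with a median change of −0.68 (log2). Klf9, a transcription factor gene that is also driven by the clock, fell by 1.20 (SE 0.13), and Zbtb16, which encodes the zinc finger protein PLZF, fell by 1.39 (SE 0.22). Dusp1 and Sgk1 fell by 0.72 (SE 0.13) and 0.68 (SE 0.15). Fkbp5, which encodes a chaperone of the glucocorticoid receptor, was higher, with values of 6.93, 7.09 and 7.42 in control and 8.14, 7.84 and 8.50 at 48 hpi. Dusp1 is also on the list of immediate early genes.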
